A study of Mus musculus with 9 samples.

Results

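The TNF superfamily and its receptors were followed in lung dendritic cells through a period of culture. The members were all rows of the table whose symbol begins with Tnfsf or Tnfrsf and a digit, together with Tnf, Lta, Ltb, Ltbr, Fas, Fasl, Cd27 and Cd70. This rule found 40 of 45535 rows that carry a gene symbol. They comprise 16 ligands, 23 receptors and Tnfsf13os, a transcript antisense to Tnfsf13. Cd40, Cd40lg and other relatives with names of their own are outside the rule and are given separately.

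RNA came from cells selected with magnetic beads for CD103, the integrin encoded by Itgae, out of collagenase-digested lungs of C57/BL6j mice 7 days into bleomycin treatment. All samples share the bleomycin treatment, a model of lung fibrosis. In 5 samples RNA was taken directly (before culture), and in 4 samples after 18 h in RPMI medium with serum and antibiotics (after culture). Replicates 1, 2, 3 and 4 after culture are the libraries named A1, A3, A4 and A5. Whether each came from a mouse of its own or from pooled mice is not stated, so p-values measure the spread between these samples.

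Ligands of this superfamily are mostly membrane proteins of trimeric form, some of which are shed by proteases. Their receptors fall into those with a cytoplasmic death domain, which can lead to caspase activation, and those that bind TRAF adaptors and lead to NF-kB and MAP kinase signalling. A few receptors bind ligand without passing a signal and act as decoys. On dendritic cells, members such as CD40, RANK and the OX40 and 4-1BB ligands are known for survival signals and for costimulation of T cells.

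The table holds normalized read counts, or read counts of genes scaled by a single factor for each sample. Samples held 14.7 to 35.3 M reads in rows with a symbol, and 1 read was worth 0.758 to 1.79. A normalized count is not corrected for length, so genes are ranked by level below only per kb of exon. Summed levels and remarks on low transcripts use counts not scaled to length. Itgae itself fell from 18138 ± 1537 to 1727 ± 335. Of the 9 markers of type 1 conventional dendritic cells examined, 6 fell and 3 (Batf3, Flt3 and Zbtb46) rose after culture. Their summed level ran from 119197 to 146231 before and from 29262 to 34287 after culture. The sum is not scaled to length, and its largest term before culture was Wdfy4, which fell from 75717 to 4761. Transcripts of other cells were present. The summed level of 8 neutrophil markers ran from 14298 to 25015 before and from 932 to 1902 after culture, and 7 fell, while Ly6g was too low to test and was at 0 in every sample after culture. The sum of 7 endothelial markers ran from 23726 to 34496 and from 3312 to 4375, that of 7 fibroblast markers from 15822 to 28809 and from 2315 to 4582, and that of 7 epithelial markers from 23202 to 37278 and from 4248 to 7619. The sums of 11 T cell markers (9056 to 10971 and 7439 to 10178) and of 8 B and plasma cell markers (8736 to 12591 and 8012 to 9724) overlapped, as did those of 9 macrophage and monocyte markers (35972 to 57935 and 26448 to 49160). In bulk samples, fewer cells of a type and less RNA per cell cannot be told apart.

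Of the 40 members, 39 reached a mean level of 10 normalized counts and were tested. After culture 16 rose and 14 fell, and 9 did not pass the test (limma on log2(value + 1), Benjamini-Hochberg adjusted p of 0.05 over all tested genes). Together 76.9% of the tested members changed, against 68.8% of the 18202 genes tested, with 34.2% of all genes higher and 34.6% lower. The share among members is thus near the background. Groups did not overlap for 25 members, or 64.1%, against 57.3% of all genes. The median log2 fold change of the members was 0.15, and that of all genes 0.0065. At least 2-fold higher were 8 of the 39 members, against 2560 of 18202 genes (14.1%). At least 2-fold lower were 11 of the 39, against 3389 of 18202 genes (18.6%). Log2 fold changes are differences of log2(value + 1), which understate the change of low genes, while a printed fold is the ratio of group means.

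The untested member was Tnfrsf17, the plasma cell receptor BCMA, at 0 to 4 reads per sample. Of the 16 ligands 4 rose and 7 fell (25.0% and 43.8%, median log2 fold change −0.52). Of the 22 tested receptors 11 rose and 7 fell (50% and 31.8%, median 0.32). Whether ligands and receptors differ in direction was not tested. The summed normalized count of the ligands ran from 8404 to 9888 before and from 4249 to 5692 after culture. That of the receptors ran from 28107 to 34741 and from 48970 to 60167, most of it from Tnfrsf1b and Tnfrsf1a.

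**Figure D1:**
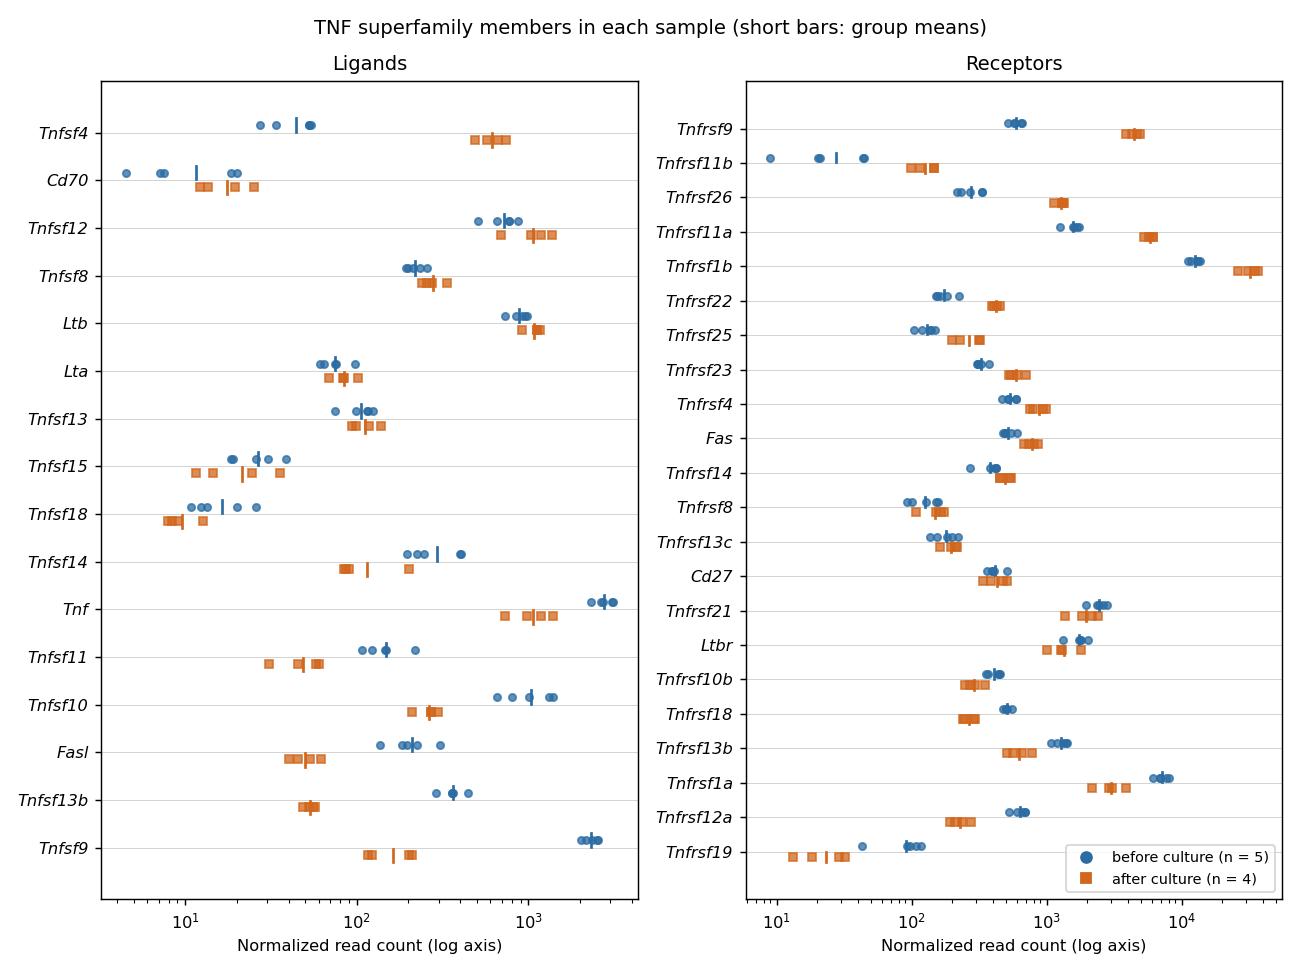
Normalized read count (log axis) of each tested ligand and receptor in every sample, with circles for the 5 samples before and squares for the 4 samples after culture, and short bars for group means. Members are ordered by log2 fold change, from Tnfsf9 and Tnfrsf19 at the bottom to Tnfsf4 and Tnfrsf9 at the top.

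Scaled to length, the receptors of TNF stood highest before culture. Tnfrsf1a was at 3312 ± 361 and Tnfrsf1b at 3281 ± 268 normalized counts per kb (SD, n = 5), which did not differ beyond their spread. Tnfsf9 at 1801 ± 164 and Tnf at 1692 ± 203 per kb followed. After culture Tnfrsf1b stood alone at 8440 ± 1224 per kb (SD, n = 4). Tnfrsf9 (1784 ± 183), Tnfrsf1a (1389 ± 318) and Tnfrsf11a (1158 ± 83.7) came next, and Tnfsf9 was at 126 ± 38.6 per kb. Exon lengths are from GENCODE M21 and may differ from those the authors counted over.

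**Figure D2:**
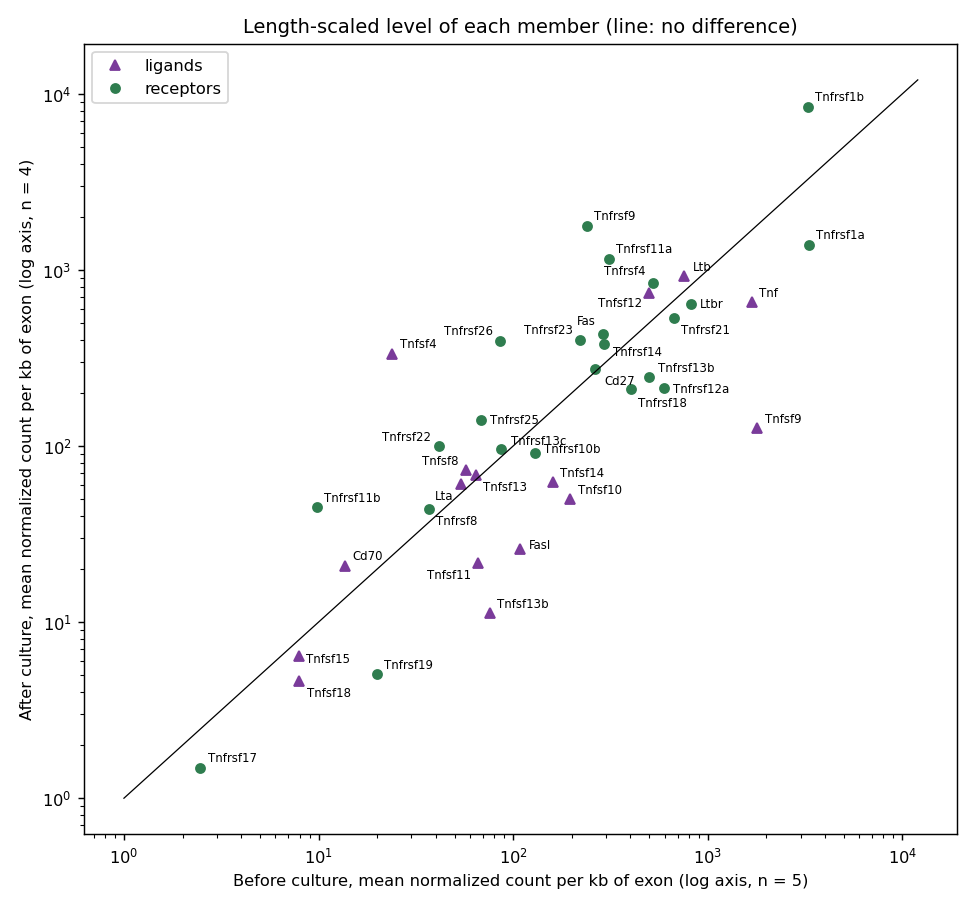
Mean normalized count per kb of exon of each member before (x axis) and after culture (y axis), both on log axes, with triangles for ligands, circles for receptors and a line of no difference. Tnfsf13os is not drawn. Tnfrsf1b lies at the top right above the line, and Tnfsf9 lies far below it.

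The promoter letters of 4 members are shown because Tnfrsf9 is the receptor with the largest rise, Tnfrsf25 and Ltb are the other risen members with an NF-kB motif, and Tnf, the neighbour of Ltb, fell. Windows run from 250 bases before to 50 after a RefSeq start site (GRCm38.p6), and 31 of the 40 members have one. Entries were missing for Cd70, Tnfsf4, Tnfsf9, Tnfsf12, Tnfsf13os, Tnfrsf10b, Tnfrsf11b, Tnfrsf22 and Tnfrsf26. Capitals mark matches to the NF-kB consensus of 10 letters on either strand.
Tnfrsf9 (chr4:150927749-150928048, plus strand): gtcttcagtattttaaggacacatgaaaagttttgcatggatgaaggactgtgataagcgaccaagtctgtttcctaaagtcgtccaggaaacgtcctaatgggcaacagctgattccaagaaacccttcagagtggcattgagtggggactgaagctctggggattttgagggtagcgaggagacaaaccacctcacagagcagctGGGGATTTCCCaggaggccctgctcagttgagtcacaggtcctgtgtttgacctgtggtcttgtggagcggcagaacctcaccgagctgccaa
Tnfrsf25 (chr4:152116093-152116392, plus strand): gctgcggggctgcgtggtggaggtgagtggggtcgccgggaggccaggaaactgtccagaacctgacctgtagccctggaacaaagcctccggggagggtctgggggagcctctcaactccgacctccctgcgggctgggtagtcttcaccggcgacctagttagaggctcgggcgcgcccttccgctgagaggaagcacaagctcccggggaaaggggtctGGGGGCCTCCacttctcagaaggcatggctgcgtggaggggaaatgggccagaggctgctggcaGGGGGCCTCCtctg
Ltb (chr17:35194257-35194556, plus strand): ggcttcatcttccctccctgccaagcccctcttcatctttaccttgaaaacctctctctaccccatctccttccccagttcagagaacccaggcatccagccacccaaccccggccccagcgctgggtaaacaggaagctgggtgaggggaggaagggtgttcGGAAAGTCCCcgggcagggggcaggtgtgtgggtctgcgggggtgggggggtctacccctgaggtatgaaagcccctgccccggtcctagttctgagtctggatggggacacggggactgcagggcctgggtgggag
Tnf (chr17:35201958-35202257, minus strand): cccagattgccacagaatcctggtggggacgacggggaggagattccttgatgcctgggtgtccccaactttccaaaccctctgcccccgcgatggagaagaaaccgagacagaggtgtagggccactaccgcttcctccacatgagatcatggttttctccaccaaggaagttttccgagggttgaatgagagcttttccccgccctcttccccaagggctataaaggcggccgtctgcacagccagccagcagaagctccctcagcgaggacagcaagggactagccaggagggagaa
In Tnfrsf9 the capitals are 2 overlapping matches that begin 43 and 42 bases before the second of its 2 RefSeq starts. In Tnfrsf25, also at the second of 2 starts, 1 match begins 28 bases before the start and the other 36 bases after it. In Ltb the match begins 87 bases before the start. The motif was present for 3 of the 10 risen members with a window, for 0 of the 12 that fell and for 1 of the 8 that did not pass the test (Tnfrsf8). Of all 27025 genes with windows 9.55% hold it, as do 8.46% of all 32851 windows. The AP-1 motif TGANTCA, searched on both strands, was present for 2 of 10, 2 of 12 and 2 of 8 members, and in 8.97% of all genes. The windows at the first starts of Tnfrsf9 and Tnfrsf25 held no NF-kB match. A match describes these letters alone. Sites outside the windows were not searched, so a window without a match does not show that a gene lacks the motif.

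Among the ligands, Tnfsf4, which encodes OX40 ligand, a costimulator of T cells, had the largest rise. Its normalized counts were 52.4, 27.2, 52.7, 54.4 and 34.0 before and 737, 664, 490 and 575 after culture. Every sample after culture lay above every sample before it. The means of 44.1 ± 12.6 and 616 ± 107 (SD, n = 5 and n = 4) are 14.0-fold apart (log2 fold change 3.81 with SE 0.214, limma adjusted p = 3.59e-09). The gene lies at chr1:161395409-161418410 (GRCm38, GENCODE M21), beside Tnfsf18 and Fasl. Those neighbours did not rise with it.

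Tnfsf9, which encodes 4-1BB ligand, another costimulator of T cells, had the largest fall. Before culture its normalized counts were 2179, 2039, 2359, 2506 and 2533, and after culture 201, 209, 116 and 122. The groups were far apart, with means of 2323 ± 212 and 162 ± 49.8 (14.3-fold lower, log2 fold change −3.88 with SE 0.167, limma adjusted p = 2.75e-10). On the opposite strand Gm11110 overlaps 8.76% of its exon bases.

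Tnf, the founding inflammatory cytokine of the family, fell by 1.40 on the log2 scale (SE 0.154, limma adjusted p = 2.76e-06). Its normalized counts were 2313, 2725, 2636, 3058 and 3134 before and 1180, 1387, 731 and 985 after culture, with no overlap. The means were 2773 ± 333 and 1071 ± 280. The lymphotoxin genes lie beside it on chromosome 17, from Ltb (start 35194439) through Tnf (35199381 to 35202007) to Lta (end 35205351). These neighbours did not move together. Ltb, the membrane anchor of the lymphotoxin heterotrimer, rose from 887 ± 103 to 1081 ± 109 with overlapping groups (log2 fold change 0.29, limma adjusted p = 0.0232). Its call was lost without replicate 1 (0.0748) or 4 after culture (0.0601), while leaving out each sample in turn gave an adjusted p between 0.00652 and 0.0748. After correction for GC content and length its log2 fold change was 0.83. Lta, the soluble lymphotoxin subunit, did not pass (74.5 ± 14.7 against 84.4 ± 13.4, limma adjusted p = 0.383), but did so after that correction (0.0331, log2 fold change 0.47). Its adjusted p reached 0.697 when single samples were left out.

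Tnfsf13b encodes BAFF, a survival factor of B cells. It was at 361, 358, 288, 446 and 363 before and at 55.6, 52.3, 57.3 and 48.7 after culture. This is a 6.79-fold fall without overlap (log2 fold change −2.73 with SE 0.139, limma adjusted p = 1.30e-09). Neutrophils are among the known sources of BAFF, and the neutrophil markers fell alongside, as given above. The sums of macrophage and monocyte markers overlapped between the groups. The part of any cell type in this result was not tested. The related ligand Tnfsf13, or APRIL, did not pass (106 ± 19.7 against 112 ± 20.02). Tnfsf12, or TWEAK, a ligand that acts on tissue repair, rose from 717 ± 139 to 1068 ± 288 with overlap (log2 fold change 0.55, limma adjusted p = 0.0179), and its call was lost without replicate 2 (0.0605) or 4 after culture (0.0592). The lowest adjusted p with a sample left out was 7.72e-04. After the GC content and length correction its log2 fold change was 0.98. Tnfsf12 and Tnfsf13 share 50.7% and 60.0% of their exon bases with other annotated genes, most of all the fusion gene Tnfsfm13, so reads could be split between them. Tnfsf13os rose 1.73-fold (73.9 ± 8.90 against 128 ± 30.1, log2 fold change 0.76), and 22.8% of its exon bases overlap Tnfsf13 or Tnfsfm13 on the opposite strand. Without known strandedness, reads from that stretch cannot be assigned to 1 gene.

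Fasl and Tnfsf10, ligands of the death receptors Fas and Tnfrsf10b, fell. Fasl, the ligand of Fas carried by cytotoxic lymphocytes, was at 137, 183, 223, 306 and 195 before and at 53.0, 45.5, 61.9 and 40.3 after culture. It had a log2 fold change of −2.01 with SE 0.215 (limma adjusted p = 2.12e-06) and no overlap. Among 6 NK cell markers 5 fell as well, and their summed level ran from 1324 to 2753 before and from 288 to 488 after culture. Of the 11 T cell markers 3 fell and 1 rose. The part of either cell type in the Fasl values was not tested.

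Tnfsf10 encodes TRAIL. Its normalized counts were 807, 1323, 1009, 1395 and 653 before and 272, 271, 298 and 210 after culture, a 3.95-fold fall (log2 fold change −1.93 with SE 0.199, limma adjusted p = 1.45e-06). The spread before culture was wide, but the lowest of these samples stood above all samples after culture. Endothelial, fibroblast and epithelial markers fell as well, as given above, and their part was not tested.

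Tnfsf11 encodes RANK ligand, known for osteoclast formation and lymph node development. It was at 123, 147, 107, 218 and 145 before and at 57.4, 45.5, 30.9 and 60.1 after culture. The groups did not overlap (log2 fold change −1.59 with SE 0.237, limma adjusted p = 4.75e-05). Tnfsf14, or LIGHT, a ligand of HVEM and the lymphotoxin receptor, fell from 295 ± 101 to 115 ± 57.2. Its groups overlapped through replicate 2 after culture at 201, against 83.9 to 90.1 in the other 3 samples after culture (log2 fold change −1.39, limma adjusted p = 6.59e-04). Without that replicate its log2 fold change was −1.69.

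Of the remaining ligands, Tnfsf8, which encodes CD30 ligand, rose from 219 ± 25.3 to 277 ± 42.0 with overlap (log2 fold change 0.34, limma adjusted p = 0.0323). This call was lost in 5 of the 9 fits that left out 1 sample, namely without replicate 1 (0.0768), 3 (0.0577) or 5 before culture (0.0689) and without replicate 2 (0.0524) or 3 after culture (0.111). The lowest such value was 0.0140. After the GC content and length correction its log2 fold change was −0.037. Low levels were seen for the ligands of GITR, DR3 and CD27. Tnfsf18 was at 10.7 to 25.7 before and 7.95 to 12.7 after culture, Tnfsf15 at 18.6 to 38.5 and 11.5 to 35.6, and Cd70 at 4.49 to 19.995 and 12.2 to 25.0. None of these 3 passed the limma test (adjusted p = 0.0835, 0.372 and 0.161). With edgeR on whole reads Tnfsf18 did so (edgeR adjusted p = 0.0439), as it did after the GC content and length correction (limma adjusted p = 0.00304), and the highest value among alternatives was 0.163. Cd70 also passed after that correction (0.0488), with a highest value of 0.346.

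**Figure D3:**
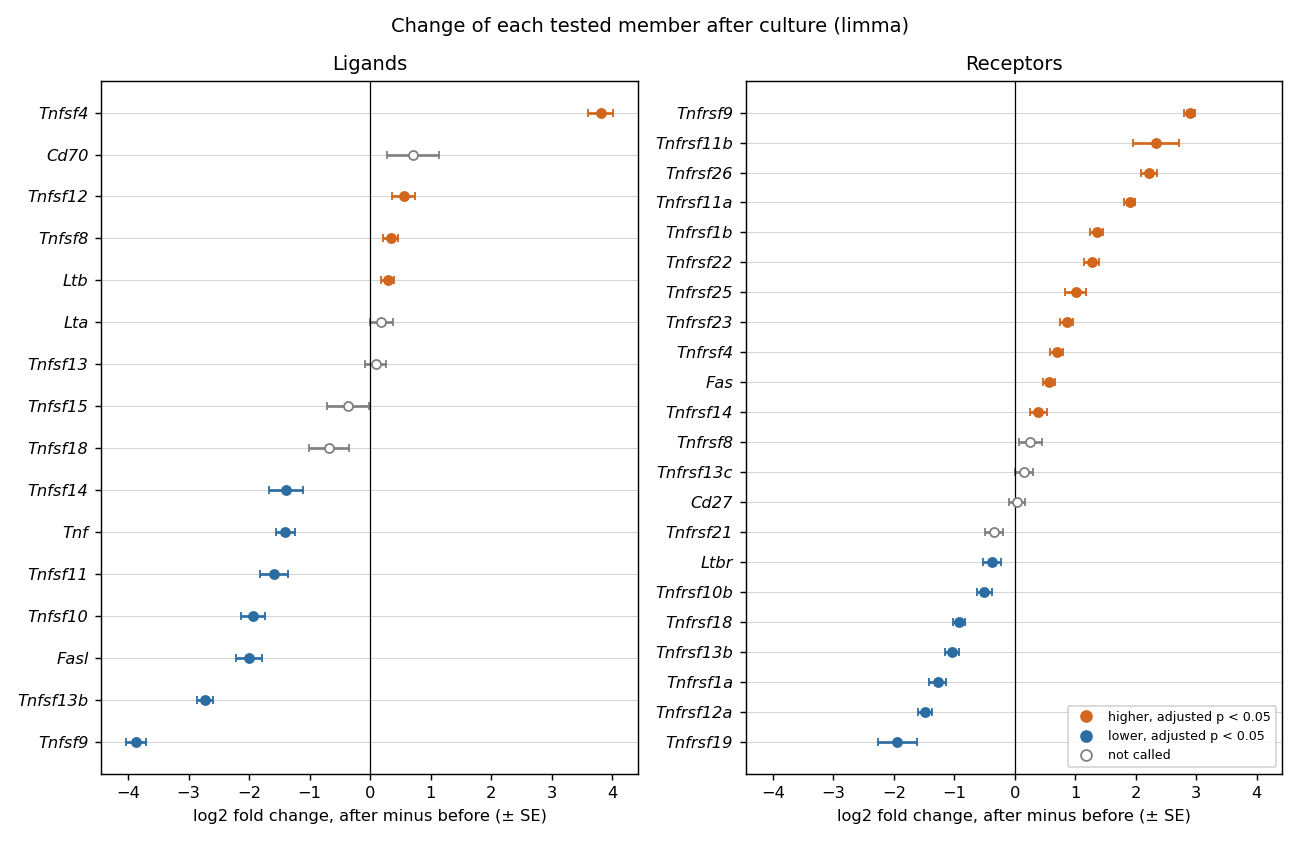
Log2 fold change (after minus before culture, limma, bars ± SE) of each tested ligand and receptor, coloured by call at an adjusted p of 0.05. Ligands extend from −3.88 (Tnfsf9) to 3.81 (Tnfsf4) and receptors from −1.94 (Tnfrsf19) to 2.89 (Tnfrsf9).

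The receptors of TNF moved in opposite directions. Tnfrsf1a, the widely expressed receptor with a death domain, had normalized counts of 6940, 6874, 8118, 6106 and 7670 before and of 2894, 3850, 2178 and 3056 after culture. It fell by 1.28 on the log2 scale (SE 0.136, limma adjusted p = 1.97e-06). Tnfrsf1b, the TRAF-binding receptor found mainly on leukocytes and endothelium, was at 11760, 13118, 13603, 11155 and 12997 before and at 31162, 34795, 26148 and 36796 after culture. It rose 2.57-fold (log2 fold change 1.36 with SE 0.105, limma adjusted p = 8.52e-08), and neither gene had overlapping groups. Within a sample, the ratio of Tnfrsf1b to Tnfrsf1a per kb lay between 0.946 and 1.08 before and between 5.10 and 6.80 after culture. This ratio was chosen after the values were seen and is given as a description.

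Tnfrsf9, which encodes 4-1BB, an activation-induced receptor of T cells and dendritic cells, rose most among the receptors. Its normalized counts were 575, 580, 653, 521 and 648 before and 4311, 4672, 4898 and 3854 after culture. All samples after culture stood far above those before it, with means of 596 ± 55.2 and 4434 ± 456 (7.44-fold, log2 fold change 2.89 with SE 0.0918, limma adjusted p = 1.75e-11). Its ligand Tnfsf9 fell over the same samples. The ratio of Tnfrsf9 to Tnfsf9 per kb lay between 0.108 and 0.148 before and between 11.1 and 21.8 after culture, again a description chosen after the values were seen. T cells also carry 4-1BB. The sums of the 11 T cell markers overlapped between the groups, with 3 markers lower and 1 higher. The part of T cells in the Tnfrsf9 values was not tested.

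Tnfrsf11a encodes RANK, a receptor that prolongs dendritic cell survival. It was at 1566, 1596, 1738, 1249 and 1686 before and at 5714, 5270, 6164 and 6134 after culture. The rise was 3.71-fold, without overlap (log2 fold change 1.90 with SE 0.0961, limma adjusted p = 1.27e-09). Tnfrsf11b, the secreted decoy osteoprotegerin that binds RANK ligand, rose as well, from 27.7 ± 15.8 to 126 ± 23.3 (log2 fold change 2.34, limma adjusted p = 1.09e-04). At 5 to 192 reads per sample it remained a low transcript.

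A cluster of 3 receptor genes at chr7:143607659-143685872 rose as a whole. It holds Tnfrsf26 and the TRAIL decoy receptors Tnfrsf22 and Tnfrsf23. Tnfrsf26 was at 232, 329, 273, 332 and 217 before and at 1139, 1355, 1304 and 1315 after culture (log2 fold change 2.22 with SE 0.131, limma adjusted p = 5.69e-09). Tnfrsf22 was at 154, 151, 163, 223 and 183 and then at 409, 448, 429 and 393 (log2 fold change 1.27 with SE 0.127, limma adjusted p = 1.03e-06). Neither gene had overlapping groups. Tnfrsf23 rose from 325 ± 28.9 to 594 ± 79.2 (log2 fold change 0.86), also without overlap. Tnfrsf22 and Tnfrsf23 share sequence, with 27.7% and 21.8% of the 50-base windows of their longest transcripts found in other genes, most of all in each other. Their separate values are therefore uncertain. On the opposite strand E230032D23Rik overlaps 11.1% of the exon bases of Tnfrsf23.

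Among the other death receptors, Fas rose 1.49-fold, from 488, 478, 607, 544 and 490 before to 742, 684, 865 and 809 after culture. The groups did not overlap (log2 fold change 0.57 with SE 0.0997, limma adjusted p = 1.87e-04). Its call did not hold after correction for GC content and length (log2 fold change 0.18, limma adjusted p = 0.0891). The lowest value among alternatives was 9.38e-07. Tnfrsf25, or DR3, the receptor of the ligand encoded by Tnfsf15, was at 105, 137, 120, 150 and 140 before and at 318, 199, 318 and 228 after culture (log2 fold change 1.01 with SE 0.167, limma adjusted p = 1.25e-04). All 4 samples after culture stood above those before. Tnfrsf10b, the signalling receptor of TRAIL in mice, fell from 410 ± 45.0 to 290 ± 44.3 without overlap (log2 fold change −0.50, limma adjusted p = 0.00240). Tnfrsf21, or DR6, lay just outside the threshold (2435 ± 315 against 1945 ± 453, log2 fold change −0.35, limma adjusted p = 0.0512). It passed without replicate 4 before culture (0.0177) or without replicate 2 (0.0113) or 4 after culture (0.0450), and under 7 of the 13 alternatives that used all samples. Its adjusted p reached 0.174 among the former and 0.404 among the latter.

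Receptors of costimulation moved in both directions. Tnfrsf4, or OX40, rose from 538 ± 54.3 to 873 ± 114 (log2 fold change 0.69), while Tnfrsf18, or GITR, its close neighbour on chromosome 4, fell from 506 ± 27.4 to 267 ± 30.6 (log2 fold change −0.92). Neither had overlapping groups. Gm16008 overlaps 25.5% of the exon bases of Tnfrsf18 on the opposite strand. Both receptors are known on regulatory T cells, and of 4 markers of those cells 1 rose (Il2ra), 1 fell (Ctla4) and 2 did not pass, Foxp3 among them (626 against 618). The part of these cells was not tested. Cd27 (412 ± 54.9 against 427 ± 78.7, limma adjusted p = 0.807) and Tnfrsf8, or CD30 (126 ± 28.9 against 150 ± 29.1, 0.252), did not pass the test. Tnfrsf8 passed after correction for GC content and length (0.0144, log2 fold change 0.56), and the highest value among alternatives was 0.301.

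Tnfrsf12a encodes Fn14, the receptor of TWEAK. It was at 656, 606, 696, 530 and 686 before and at 209, 237, 273 and 191 after culture. This was a fall without overlap (log2 fold change −1.48 with SE 0.121, limma adjusted p = 1.47e-07). Fn14 is known on stromal and epithelial cells, whose markers fell as given above, and their part was not tested. The same holds for Tnfrsf19, or TROY, a receptor of epithelial and neural tissue, which fell from 91.1 ± 28.5 to 23.0 ± 8.77 (log2 fold change −1.94, limma adjusted p = 1.23e-04).

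Tnfrsf13b, or TACI, a receptor of BAFF and APRIL on B cells, fell from 1278 ± 138 to 628 ± 117 without overlap (log2 fold change −1.04). The BAFF receptor Tnfrsf13c did not pass (178 ± 33.4 against 197 ± 25.2, limma adjusted p = 0.397). Of the 8 B and plasma cell markers 2 rose and 2 fell, and the part of these cells was not tested. Both receptors of LIGHT passed the test. Tnfrsf14, or HVEM, rose from 381 ± 64.8 to 495 ± 51.1 (log2 fold change 0.39, limma adjusted p = 0.0209), a call lost without replicate 1 (0.0631) or 2 after culture (0.0552). The lowest adjusted p with a sample left out was 0.0186. Ltbr, the lymphotoxin beta receptor, fell from 1724 ± 252 to 1344 ± 324 with overlap (log2 fold change −0.38, limma adjusted p = 0.0389). This call held under 10 of the 13 alternatives that used all samples, but in only 2 of the 9 fits with a sample left out, those without replicate 4 before or replicate 2 after culture. It was lost without replicate 1 (0.0667), 2 (0.0695), 3 (0.0908) or 5 before culture (0.0734) and without replicate 1 (0.0807), 3 (0.130) or 4 after culture (0.0751). The adjusted p spanned 0.00326 to 0.130, and the log2 fold change was −0.24 without replicate 3 after culture. With upper quartile scaling its adjusted p was 0.103, and after correction for GC content and length its log2 fold change was 0.19.

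Ligands and their known receptors were then set side by side. The 19 pairs were drawn up from textbook knowledge after the values had been seen. In 13 pairs both partners passed the test, and 8 of these moved in opposite directions. Of all tested genes 34.2% were higher and 34.6% lower, so opposite directions are common among called genes in any case. Pairs of other genes were not counted, and 8 of 13 is given as a description. The list is not complete. It leaves out Lta with the receptors of TNF, and Tnfsf10 with the decoy receptors Tnfrsf22 and Tnfrsf23. The ligand fell and the receptor rose in 6 pairs, namely Tnfsf9 with Tnfrsf9, Tnfsf11 with Tnfrsf11a, Tnfsf11 with Tnfrsf11b, Tnf with Tnfrsf1b, Fasl with Fas, and Tnfsf14 with Tnfrsf14. The ligand rose and the receptor fell for Tnfsf12 with Tnfrsf12a and for Ltb with Ltbr. Both Ltb and Ltbr rest on weak calls. The calls of Tnfsf12, Tnfrsf14 and Fas did not hold in every alternative either, as given above. Tnfsf4 with Tnfrsf4 was the only pair in which both rose. Both fell in 4 pairs, namely Tnf with Tnfrsf1a, Tnfsf10 with Tnfrsf10b, Tnfsf14 with Ltbr, and Tnfsf13b with Tnfrsf13b. Pairs share genes, so they are not independent. The ratio of Tnfrsf11a to Tnfsf11 per kb lay between 2.54 and 7.25 before and between 44.3 and 88.6 after culture.

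**Figure D4:**
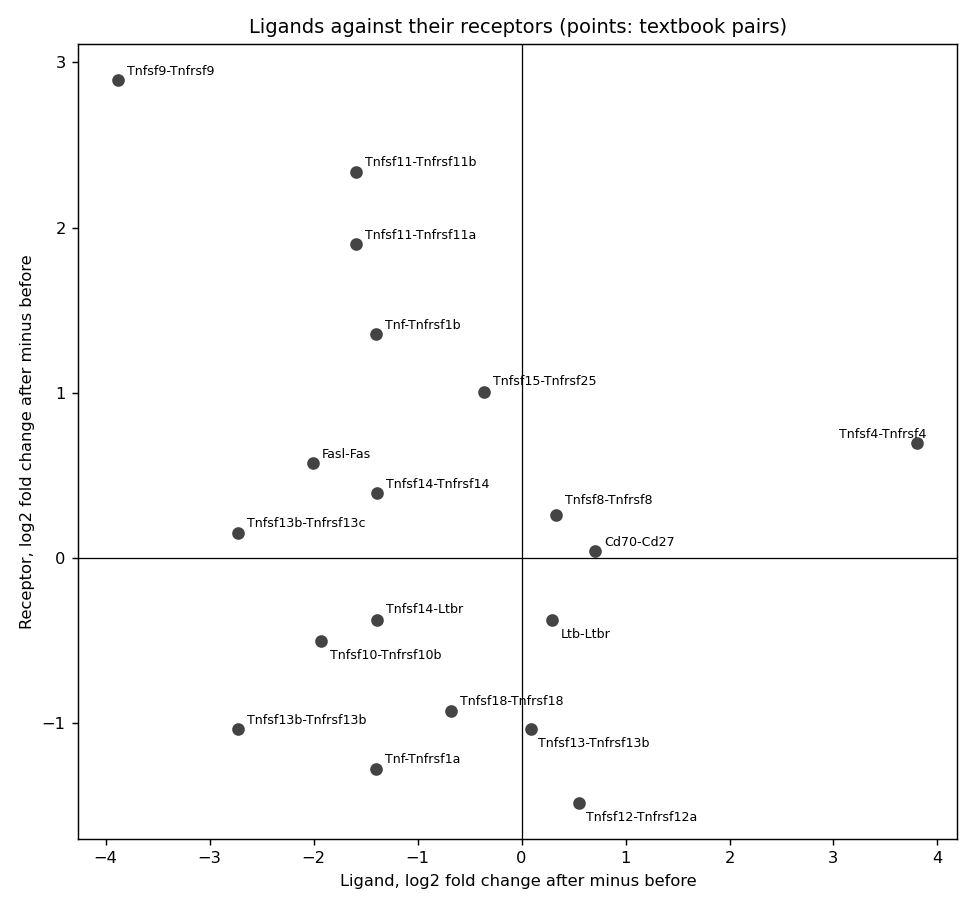
Log2 fold change (after minus before culture) of each ligand on the x axis against that of its receptor on the y axis, with 1 point for each of the 19 pairs. Tnfsf9 with Tnfrsf9 lies at the far upper left (−3.88 and 2.89), and Tnfsf4 with Tnfrsf4 at the far right (3.81 and 0.69).

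Superfamily members with other names were listed separately, 7 in all, of which 3 rose and 3 fell. Among all tested genes 34.2% were higher and 34.6% lower. Edar was too low to test. Cd40, the receptor through which T cells license dendritic cells, rose from 1223 ± 70.1 to 2590 ± 406 (log2 fold change 1.07, limma adjusted p = 4.00e-07). Its ligand Cd40lg, carried by T cells, fell from 179 ± 48.8 to 112 ± 29.3 with overlap (log2 fold change −0.67, limma adjusted p = 0.0139), and did not pass under quantile normalization (0.0613), while the lowest value among alternatives was 4.81e-04. After correction for GC content and length it was −1.05. Relt rose from 1060 ± 182 to 1726 ± 138 (log2 fold change 0.72, and 1.16 after that correction), and Eda2r, a receptor of ectodysplasin and a known p53 target, from 44.3 ± 7.13 to 143 ± 50.6 (log2 fold change 1.63). Ngfr, the low-affinity neurotrophin receptor, had the largest fall of all superfamily genes, from 372 ± 70.7 to 3.36 ± 2.50 (log2 fold change −6.57 with SE 0.332, limma adjusted p = 1.25e-09). Its normalized counts were 264 to 435 before and 0.910 to 6.84 after culture, the latter from 1 to 9 reads per sample. With so few reads the log2 fold change depends on the pseudocount and was −5.07 with a pseudocount of 8. Eda fell from 22.5 ± 9.10 to 5.61 ± 3.94 (log2 fold change −2.18, limma adjusted p = 0.00521). Its log2 fold change was −1.41 without replicate 1 after culture and −1.18 with a pseudocount of 8.

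The signalling genes that act below these receptors were taken as 3 lists with 41 genes, all of them tested. Of these 25 rose and 10 fell, so 85.4% changed against 68.8% of all genes. The 9 genes of shedding and cleavage, all of which changed, are part of this share. Every gene of the 3 lists had a mean level above 50. With a filter at that level 9925 of 13551 genes changed, a larger share than 68.8%. Groups did not overlap for 33 of the 41 genes, or 80.5%, against 57.3% of all genes. Of the 15 adaptors and genes of the death complex, 12 rose and 2 fell (median log2 fold change 0.88). Birc2, a ubiquitin ligase bound to TRAF adaptors, rose from 1429 ± 162 to 6283 ± 1235 (log2 fold change 2.12, limma adjusted p = 5.42e-09). Traf1, an adaptor known as an NF-kB target, rose from 6697 ± 290 to 20711 ± 2271 (log2 fold change 1.62). Mlkl, the executor of necroptosis, rose from 154 ± 13.5 to 439 ± 134 (log2 fold change 1.45). Traf4 fell from 1281 ± 113 to 229 ± 36.1 (log2 fold change −2.49, limma adjusted p = 4.43e-10). Ripk3, the kinase that acts on Mlkl, fell from 751 ± 76.1 to 583 ± 128 with overlap (log2 fold change −0.39, limma adjusted p = 0.0246). That call was lost without replicate 5 before culture (0.0538), replicate 1 after culture (0.0548) or replicate 3 after culture (0.0731, log2 fold change −0.23), with a lowest value of 0.00641. It was also lost with upper quartile scaling (0.0829) and after correction for GC content and length (0.431).

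Of 17 ubiquitin factors and kinases 9 rose and 3 fell (median 0.18). Together 70.6% changed, against 68.8% of all genes, so this share is near the background. By direction, 52.9% were higher and 17.6% lower, against 34.2% and 34.6% of all genes. Ikbkg, the regulatory subunit NEMO of the IKK complex, rose from 677 ± 64.8 to 2442 ± 190 (log2 fold change 1.85, limma adjusted p = 6.83e-10). Map3k14, the kinase NIK of the noncanonical NF-kB pathway, rose from 6292 ± 534 to 13910 ± 1479 (log2 fold change 1.14). The deubiquitinase gene Cyld rose from 2953 ± 174 to 4257 ± 487 (log2 fold change 0.52, and 0.32 after correction for GC content and length). Tnip1, which binds A20, rose as well (log2 fold change 0.40, limma adjusted p = 4.00e-04). Tnip3 (0.18) and the deubiquitinase gene Otulin (0.013) did not pass. Tnfaip3, which encodes the ubiquitin editor A20, fell from 32369 ± 1912 to 6264 ± 336 (log2 fold change −2.37 with SE 0.0749, limma adjusted p = 1.75e-11). Tnip2, another gene of an A20-binding protein, fell from 1363 ± 173 to 651 ± 22.0 (log2 fold change −1.05). Rbck1, a subunit of the linear ubiquitin ligase, fell from 3189 ± 260 to 2297 ± 113 (log2 fold change −0.47), but was at 0.10 after correction for GC content and length (limma adjusted p = 0.137).

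All 9 genes of shedding and cleavage changed, 4 higher and 5 lower (median −0.50), where 68.8% of all genes changed, 34.2% higher and 34.6% lower. Adam17, the protease that sheds TNF and its receptors, rose from 2997 ± 197 to 4699 ± 706 (log2 fold change 0.64), and Adam10 from 4592 ± 308 to 8797 ± 1140 (log2 fold change 0.93, and 0.57 after correction for GC content and length). Sppl2a, an intramembrane protease, rose from 4705 ± 269 to 7891 ± 700 (0.74, and 0.30 after that correction) and Frmd8, a cofactor of Adam17 trafficking, from 2263 ± 158 to 2811 ± 49.8 (0.32, and 0.77). Furin, which cleaves the ligands BAFF, APRIL and TWEAK as well as pro-ADAM proteins, fell from 24200 ± 3535 to 6087 ± 923 (log2 fold change −1.99, limma adjusted p = 1.32e-08). Timp3, an inhibitor of Adam17, fell from 1671 ± 275 to 804 ± 86.2 (log2 fold change −1.04), and Rhbdf1 from 382 ± 40.8 to 204 ± 17.0 (−0.90, and −0.39 after that correction). The other 2 genes that fell were Rhbdf2, which encodes the ADAM17 partner iRhom2, and Sppl2b.

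**Figure D5:**
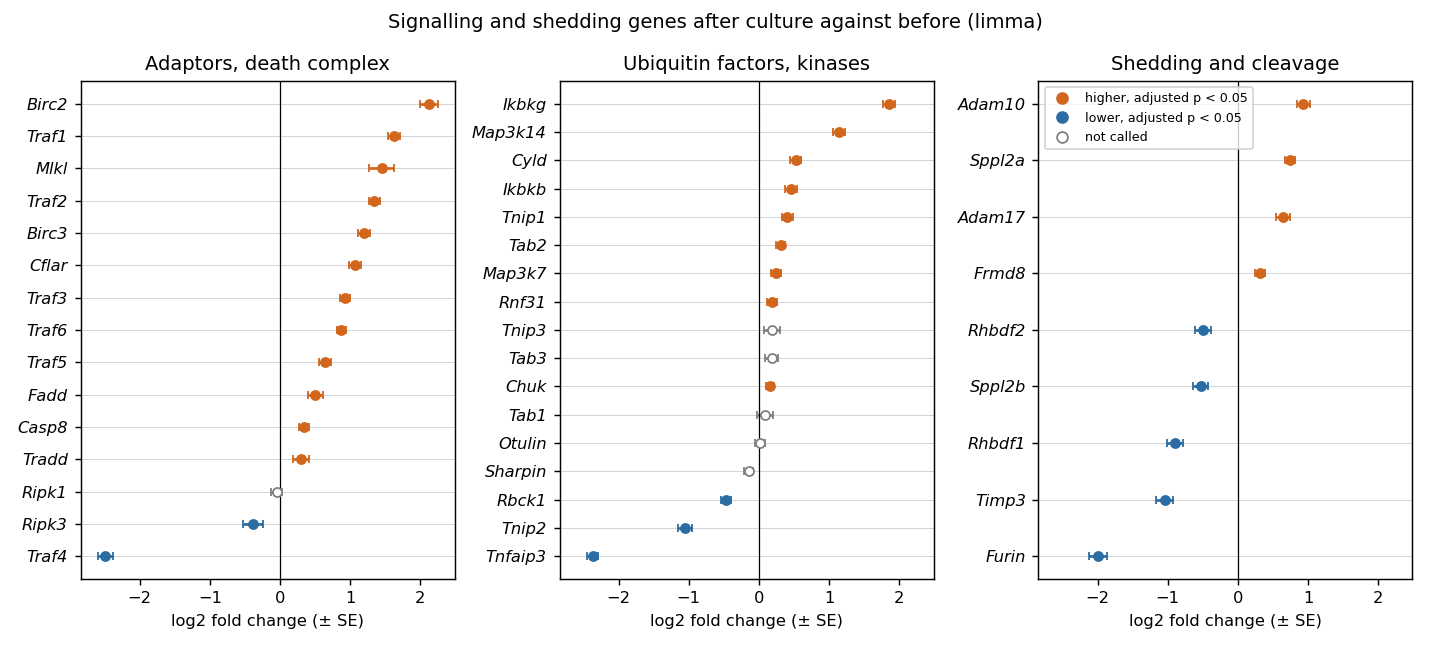
Log2 fold change (after minus before culture, limma, bars ± SE) of the adaptors and death complex genes, the ubiquitin factors and kinases, and the shedding and cleavage genes, coloured by call at an adjusted p of 0.05. Birc2 (2.12) and Traf4 (−2.49) mark the ends of the first panel, Ikbkg (1.85) and Tnfaip3 (−2.37) those of the second, and Adam10 (0.93) and Furin (−1.99) those of the third.

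Replicates of a group did not rank alike over the 39 tested members. After culture, replicate 2 was the highest sample for 16 members, replicate 3 the highest for 14 and the lowest for 15, and replicate 4 the highest for 2. Of the 39, 10 had their highest value after culture in replicate 2 and their lowest in replicate 3. Tnf, Tnfrsf1a, Ltbr, Tnfrsf21 and Tnfsf12 were among them. This order was picked out after the values were seen, and its share among all tested genes was not computed. The same order held for 7 of the 9 macrophage and monocyte markers, whose summed level was 49160 in replicate 2 and 26448 in replicate 3, against 36329 and 36612 in the other samples after culture. It held for 5 of the 7 tested neutrophil markers, with sums of 1902 and 932, and for none of the 11 T cell markers. The part of these cells in the members' values was not tested. Before culture, replicate 4 was the highest sample for 11 members and the lowest for 14.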

How the data were processed

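RNA of 9 samples (5 before and 4 after culture) was sequenced by a company. The authors deposited a single table with a normalized read count per gene, which is a signal without negative values. DESeq2 and the build GRCm38 are named in the submitters' processing notes, without their role. The aligner, counter and annotation are not given in the sources used here. Dividing each column by the worth of 1 read gave whole numbers for 100.0% of values (relative tolerance 1e-06), so whole reads were recovered. The 3782 rows without a symbol, 3.87 to 10.9% of reads, were left out.

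Genes that reached a mean level of 10 were tested with limma 3.58.1 in R 4.3.3 on log2(value + 1) (group as the only term, mean-variance trend, two-sided, Benjamini-Hochberg over all 18202 tested genes, threshold 0.05). Values are means ± SD. Groups follow the sample titles. The members and lists were chosen with earlier results of these data known, so no list was tested as a whole, and counts are set beside those of all genes. Values in every sample are given for the 7 largest rises and 7 largest falls among called members with a mean of at least 100, and for Tnf, Fas, Tnfrsf1a, Tnfrsf1b and Tnfsf9. Of the signalling and shedding lists, up to 3 called genes with the largest change in each direction are named, and in lists of 9 or fewer all called against the list's median. Lengths, overlaps and shared 50-base windows are from GENCODE M21, and promoter letters from RefSeq (GRCm38.p6). Alternatives were other pseudocounts, filters and scalings, sample weights, edgeR 4.0.16 and DESeq2 1.42.0 on whole reads, replicate blocks, a GC content and length correction, and leaving out each sample. Code was tested on simulated data.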

Additional observations from a re-analysis of the deposited data

Results flagged for a closer look

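In 126 groups of values checked, 3 held a sample far from the others of its group, where chance gives about 1 in 20 groups. The check took 2 groups for each tested member and for each list gene picked by the naming rule given above. Genes named for other reasons, such as Tnip1 and the cell type markers, were not checked. Tnfsf14 was at 201 in replicate 2 after culture, against 83.9 to 90.1 in the other 3 samples. Eda was at 38.5 in replicate 4 before culture, against 16.1 to 19.995 in the other 4. Rbck1 was at 2466 in replicate 1 after culture, against 2233 to 2246 in the other 3.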

How the results depend on the processing

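The counts of 16 members that rose and 14 that fell lay between 13 and 17 and between 13 and 16 under the 13 alternatives that used all samples, and between 13 and 16 and between 13 and 15 when each of the 9 samples was left out in turn. Of the 39 tested members 28 kept their side of the threshold under all 22 alternatives that tested them, and 11 did not. Correction for GC content and length gave the opposite sign for Tnfsf8 (log2 fold change −0.037), Ltbr (0.193) and Rbck1 (0.102), none of them past the threshold there, and the cause was not tested. Upper quartile scaling moved the median log2 fold change of all genes from 0.0065 to 0.117. The labels do not say whether samples of the same number before and after culture are paired. The main fit treats all samples as unpaired. Deviations from group means of same-numbered samples correlated at 0.0807, 0.0796, −0.213 and −0.0403 by title number. By library number they correlated at 0.0807, 0.247, 0.349 and 0.0447. Each sample after culture correlated best with the sample before culture of its own library number. With a replicate block by title number 13 members rose and 13 fell (11646 of all genes changed), and the limma adjusted p of Ltb (0.0523), Tnfsf12 (0.0598), Tnfsf8 (0.101) and Ltbr (0.0840) no longer passed, and with a replicate block by library number 16 rose and 15 fell (12836). Genes near the floor of 3 reads, such as Tnfrsf17, cannot be compared at this depth.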
